A study of Mus musculus with 6 samples.

Results

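The small leucine-rich proteoglycans examined here are 9 genes of a family of secreted matrix proteins: Dcn, Bgn and Aspn of class I, Lum, Fmod, Prelp and Omd of class II, and Epyc and Ogn of class III. The genes were chosen by family, with low readings of Dcn and Lum in the Stat2 KO hosts already known, and the probe set of each was selected on its measured level, as the brightest one annotated to that gene alone by the mean over 6 arrays. All 9 of the 9 genes were measured, among 22180 genes in all. The samples were 6 B16-F1 tumours, with 3 from Stat2 KO hosts and 3 from WT hosts, all on the C57BL6 background and all harvested at day 20 after B16-F1 melanoma cells had been inoculated. B16-F1 is an established pigmented mouse melanoma line, and Stat2 encodes a transcription factor that acts after type I interferon. The genotype is that of the host, nothing in the labels says that the inoculated melanoma cells were altered, and they do not say whether each tumour came from its own mouse. The p-values therefore measure the spread between these 6 tumours.

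These proteins share a core of leucine-rich repeats that curves around and binds collagen fibrils, and most carry chondroitin, dermatan or keratan sulfate chains. They set the width and spacing of collagen fibrils and bind growth factors, above all of the TGF-beta family, and some act as ligands of receptors once they are released from the matrix. In skin and in tumours decorin and lumican are made mainly by fibroblasts, biglycan also by endothelial and some tumour cells, and the other members are best known from tendon, cartilage, bone, cornea and basement membranes.

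The genes lie in clusters that arose by duplication. In the RefSeq gene table Dcn, Lum, Kera and Epyc follow each other on chromosome 10, Ecm2, Aspn, Omd and Ogn on chromosome 13, and Optc, Prelp and Fmod on chromosome 1, with Bgn on chromosome X. Aspn, Omd and Ogn lie within the span of another gene, Cenpp, and the strand that the probe sets read was not given in the sources used here. The RefSeq promoter table (GRCm38.p6) gave a start for 7 of the 9 members, and Dcn and Lum were the 2 with no entry. The 250 bases before the start are shown for the class I members Bgn and Aspn, which have the most and the least G and C among the members' promoters (64.4% and 30.0%, against a median of 52.4% over all promoters), and for Fmod, whose values in the Stat2 KO hosts stood above those in WT hosts. Capitals mark TATAAA or its reverse complement.
Bgn, chrX:73483351-73483600, plus strand: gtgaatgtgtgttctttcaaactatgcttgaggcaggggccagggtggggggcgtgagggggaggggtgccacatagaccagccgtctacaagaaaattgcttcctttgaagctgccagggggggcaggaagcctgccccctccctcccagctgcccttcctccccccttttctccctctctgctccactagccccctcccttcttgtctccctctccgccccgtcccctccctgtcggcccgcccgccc
Aspn, chr13:49544193-49544442, plus strand: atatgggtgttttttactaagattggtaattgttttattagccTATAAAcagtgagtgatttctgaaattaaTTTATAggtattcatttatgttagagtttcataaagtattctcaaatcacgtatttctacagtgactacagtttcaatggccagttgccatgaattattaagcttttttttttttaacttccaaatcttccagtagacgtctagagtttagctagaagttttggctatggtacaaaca
Fmod, chr1:134037004-134037253, plus strand: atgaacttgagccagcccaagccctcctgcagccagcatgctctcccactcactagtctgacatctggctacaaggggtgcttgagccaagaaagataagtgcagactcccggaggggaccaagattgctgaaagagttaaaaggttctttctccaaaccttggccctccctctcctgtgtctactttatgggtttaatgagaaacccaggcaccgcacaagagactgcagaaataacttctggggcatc

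Both strands of each window were searched for 3 motifs. The core of the interferon-stimulated response element, GAAANNGAAA, a site used in the response to type I interferon, was found in the windows of 0 of the 7 members and in 2.98% of all 32851 promoters. The AP-1 site, TGANTCA, was found in 0 of the 7 and in 6.75% of all promoters. TATAAA was found in 2 members, Aspn and Ogn, and in 12.4% of all promoters, with the match farthest from the start at -207 in Aspn and -229 in Ogn. In Ogn the matches on opposite strands overlap. The counts describe these letters in these windows and no more.

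Stat2 itself read 6.45, 6.48 and 6.33 in Stat2 KO hosts, against 6.79, 6.70 and 6.70 in the WT hosts (log2 expression, in replicate order). It was 0.31 lower by the fit (a difference of -0.31, SE 0.126), the groups did not overlap, and the limma adjusted p was 0.532, so the probe set is a weak check of the labels. Median log2 values of the arrays lay between 6.08 and 6.22 for Stat2 KO hosts and between 6.06 and 6.13 for WT hosts. Stat2 KO replicate 2 stood apart among the members, with the lowest of the 6 values for 5 of the 9 genes (Dcn, Bgn, Aspn, Lum and Omd). WT replicate 1 held the highest value for 4 of them (Dcn, Aspn, Lum and Ogn). Levels of different genes are not set against each other, since probe sets differ in brightness for the same amount of RNA. As a guide to dim readings, the 1105 olfactory receptor genes, which serve the sense of smell, had a median of 5.21.

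Lower readings of decorin and lumican in tumours of Stat2 KO hosts were the largest differences of the family. Dcn was 47.8% lower and Lum 56.8% lower on the linear scale, Bgn was 25.6% lower, and the remaining 6 members differed by less than 0.3 log2 units in either direction. No member passed the limma adjusted p threshold of 0.05: the count was 0 of 9, where 0.00902% of all genes passed in the lower direction (2 genes, Ifi204 and Cxcl9) and 0% in the higher. At an unadjusted limma p under 0.05, 3 of the 9 were lower (Dcn, Lum and Bgn) and 0 higher, against 3.48% of all genes lower and 5.34% higher. The 9 were taken as a family with Dcn and Lum already known to read low, so these counts describe the members and carry no test of the family.

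**Figure D1:**
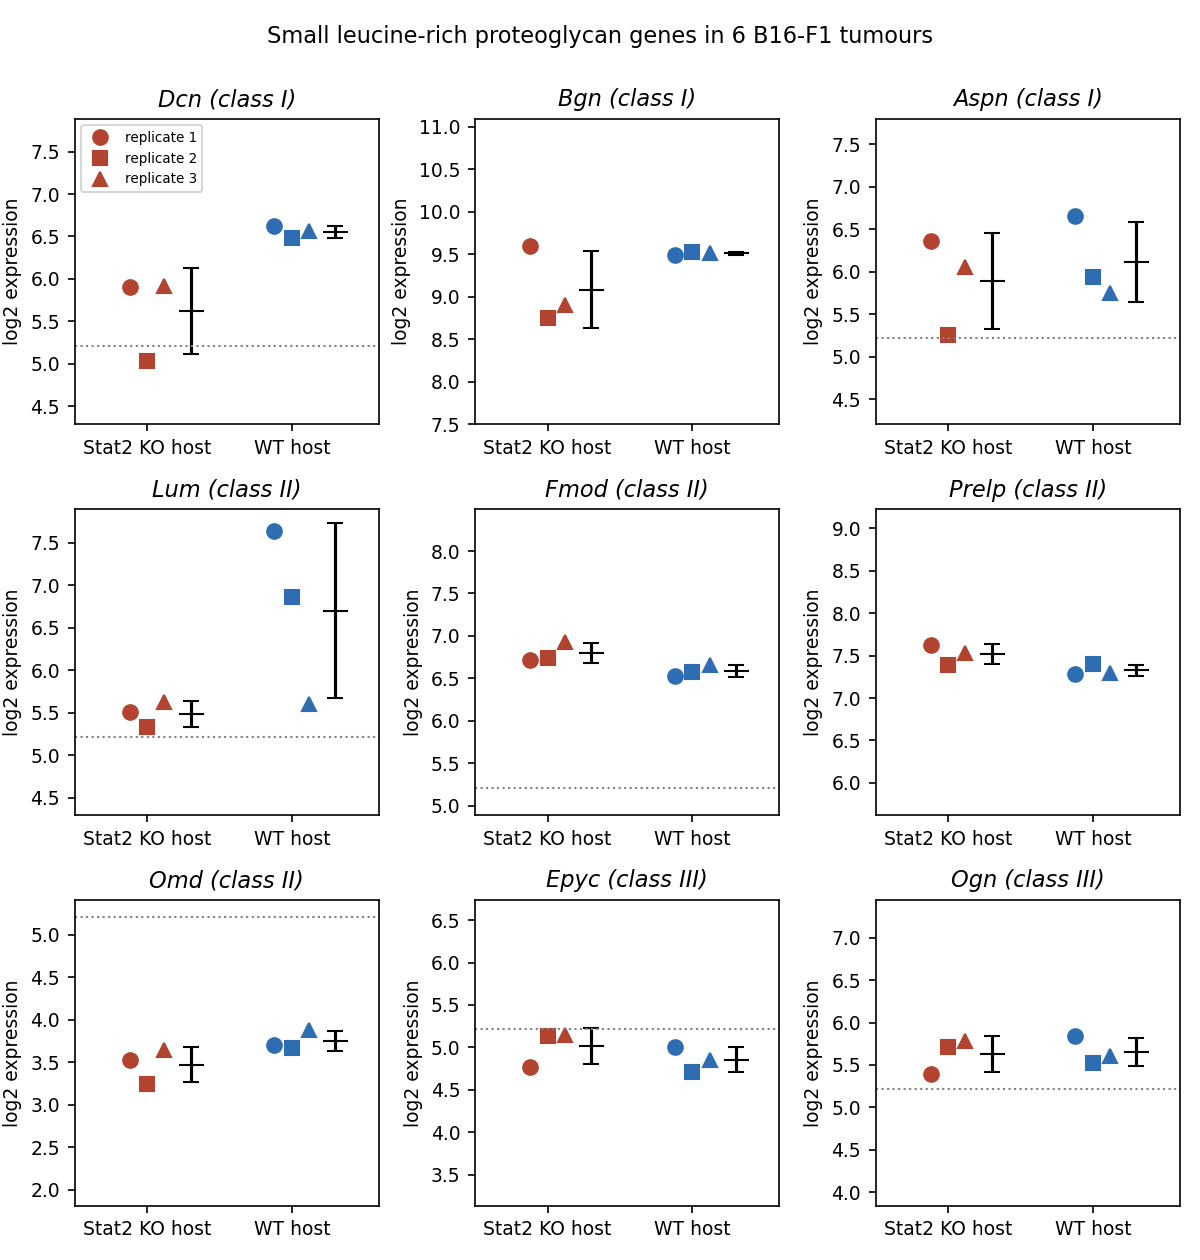
Log2 expression of the 9 members in each tumour, with Stat2 KO hosts in red on the left and WT hosts in blue on the right of each panel. Symbols give the replicate, the black mark and bar give the mean and SD of 3 tumours, the dotted line marks 5.21, the median of olfactory receptor genes, where it falls in the panel, and each axis spans the same length. All 3 Dcn values in Stat2 KO hosts lie below those in WT hosts, whereas Lum in WT replicate 3 (5.60) lies among the Stat2 KO tumours.

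Among the class I members, decorin binds the collagen fibril surface, TGF-beta and receptor tyrosine kinases such as EGFR and MET. Dcn read 5.90, 5.03 and 5.92 in Stat2 KO hosts, against 6.62, 6.48 and 6.57 in WT hosts. The WT tumours were tightly grouped, the Stat2 KO tumours were all lower, and the highest Stat2 KO value stood 0.56 below the lowest WT value. The mean was 5.62 ± 0.507 for Stat2 KO hosts and 6.56 ± 0.074 for WT hosts (SD, n = 3 each), a difference of -0.94 (SE 0.210, 95% interval -1.39 to -0.48, limma adjusted p = 0.351). The intervals given here and below are for 1 gene at a time. Without Stat2 KO replicate 2, its lowest tumour, the Dcn difference was -0.65 with a limma adjusted p of 0.340, and over all alternatives that p ranged from 0.050 to 0.776. In bulk tumours, fewer cells of a type and less RNA per cell cannot be told apart.

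Biglycan carries dermatan or chondroitin sulfate chains, and its soluble form is a ligand of TLR2 and TLR4. Bgn read 9.60, 8.75 and 8.90 in Stat2 KO hosts, against 9.49, 9.53 and 9.51 in WT hosts. Among WT tumours it spanned 0.046 log2 units and among Stat2 KO tumours 0.85, with replicate 1 above every WT tumour and replicates 2 and 3 below all of them, so the groups overlapped. The difference was -0.43 (SE 0.195, 95% interval -0.85 to -0.0015, limma adjusted p = 0.566). Leaving out Stat2 KO replicate 1 gave -0.68, and leaving out replicate 2 gave -0.26. A dimmer probe set of Bgn, at a mean of 7.04 against 9.30 for the one used, gave 0.08 (SE 0.144, limma adjusted p = 0.88), so the direction held for the brighter probe set only.

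Asporin, named for a run of aspartate residues near its start, binds collagen and TGF-beta and is known from cartilage and cancer-associated fibroblasts. Aspn read 6.36, 5.26 and 6.05 in Stat2 KO hosts, against 6.65, 5.94 and 5.75 in WT hosts. The groups overlapped over most of their range. The difference of -0.22 (SE 0.275, 95% interval -0.82 to 0.37, limma adjusted p = 0.81) turned to 0.09 when Stat2 KO replicate 2 was left out and to 0.04 when WT replicate 1 was. Stat2 KO replicate 2 held the lowest value of all 3 class I genes.

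Among the class II members, lumican is a keratan sulfate proteoglycan that spaces collagen fibrils and keeps the cornea clear. Lum read 5.51, 5.33 and 5.63 in Stat2 KO hosts, against 7.64, 6.87 and 5.60 in WT hosts. The Stat2 KO tumours lay within 0.30 of each other, whereas the WT tumours spanned 2.04, and WT replicate 3 was below Stat2 KO replicate 3. The mean was 5.49 ± 0.152 for Stat2 KO hosts and 6.70 ± 1.03 for WT hosts (SD, n = 3 each), a difference of -1.21 (SE 0.366, 95% interval -2.01 to -0.41, limma adjusted p = 0.462). Without WT replicate 3 it was -1.76 and passed (limma adjusted p = 0.0118), and without WT replicate 1 it was -0.74 (limma adjusted p = 0.877); over all alternatives that p ranged from 0.0118 to 0.908. The Stat2 KO mean stood at or above 59.7% of the olfactory receptor genes and the WT mean at or above 94.7% of them, so the Stat2 KO level was near that of dim probe sets and the size of the difference is uncertain. For Dcn these shares were 64.3% with Stat2 KO hosts and 92.5% with WT hosts, and the same limit holds.

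Dcn and Lum are neighbours on chromosome 10. In WT replicate 3 Dcn read 6.57, among the other WT tumours, while Lum read 5.60, among the Stat2 KO tumours. Whether their differences by host genotype are unequal was not tested. Epyc, the further member on that chromosome, is a class III proteoglycan of growth cartilage. Epyc read 4.77, 5.13 and 5.15 in Stat2 KO hosts, against 5.01, 4.71 and 4.86 in WT hosts, with groups that overlapped and both means below 5.21 (difference 0.16, SE 0.163, limma adjusted p = 0.776, between 0.08 and 0.28 with 1 tumour left out). Kera, which encodes keratocan of the cornea and lies between Lum and Epyc, read 5.71, 5.78 and 6.15 in Stat2 KO hosts, against 5.64, 5.61 and 5.52 in WT hosts (difference 0.29, SE 0.150, limma adjusted p = 0.60), and its difference was 0.15 without Stat2 KO replicate 3.

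Fibromodulin, a class II protein of tendon, shares a binding site on type I collagen with lumican. Fmod read 6.72, 6.74 and 6.93 in Stat2 KO hosts, against 6.53, 6.57 and 6.66 in WT hosts. Each Stat2 KO tumour exceeded every WT tumour, by a gap of 0.057 log2 units. The difference was 0.21 (SE 0.131, 95% interval -0.07 to 0.49, limma adjusted p = 0.646), and the dimmer probe set gave 0.28 (SE 0.138, limma adjusted p = 0.59), also with groups that did not overlap. Exact two-sided permutation of the 6 arrays gave p = 0.1 for Fmod and for Dcn and p = 0.2 for Lum, and 0.1 is the smallest p that 3 against 3 allows.

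Prelp anchors basement membranes to the connective tissue and is the third class II member. Prelp read 7.63, 7.39 and 7.53 in Stat2 KO hosts, against 7.28, 7.40 and 7.29 in WT hosts. Stat2 KO replicate 2 lay just below WT replicate 2, and the other Stat2 KO tumours were above all WT tumours. The difference was 0.19 (SE 0.131, 95% interval -0.09 to 0.48, limma adjusted p = 0.673), but the dimmer probe set ran the other way, at -0.18 (SE 0.144, limma adjusted p = 0.714). Omd encodes osteomodulin of bone matrix, and it read 3.52, 3.25 and 3.65 in Stat2 KO hosts, against 3.70, 3.67 and 3.88 in WT hosts. The groups stood 0.020 apart, the difference was -0.28 (SE 0.197, limma adjusted p = 0.684) and -0.17 without Stat2 KO replicate 2, and no more than 12.4% of the olfactory receptor genes were as dim, so the Omd probe set was not shown to read a transcript. Ogn encodes mimecan, a class III protein that takes part in collagen fibril assembly. It read 5.39, 5.71 and 5.78 in Stat2 KO hosts, against 5.84, 5.53 and 5.60 in WT hosts, a difference of -0.03 (SE 0.155, 95% interval -0.37 to 0.31, limma adjusted p = 0.961). Its means stood at or above 64.6% of the olfactory receptor genes for Stat2 KO hosts and 65.3% for WT hosts, so both groups read near the level of dim probe sets.

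Over the 9 members, 6 were lower and 3 higher in Stat2 KO hosts with a median difference of -0.22, whereas 46% of all genes were lower and their median was 0.02. The share depends on brightness, since 65.3% of the 11090 genes brighter than the median gene were lower. Counts of lower genes, here and in the lists below, were not adjusted for brightness. The median of the members was 0.04 when WT replicate 1 was left out and -0.07 when Stat2 KO replicate 2 was. Groups did not overlap in the lower direction for 2 of the 9 (Dcn and Omd), against 5.11% of all genes, and in the higher direction for 1 of the 9 (Fmod), against 8.23%. The share of lower genes among all those with an unadjusted limma p under 0.05 was 39.4% with the deposited scaling, 50.8% after a further quantile normalization, 60.2% after median centring and 51.8% after cyclic loess. Dcn and Lum had an unadjusted p under 0.05 in each of these, whereas Bgn had not after the 3 other scalings and Prelp, higher, had after quantile normalization and cyclic loess.

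**Figure D2:**
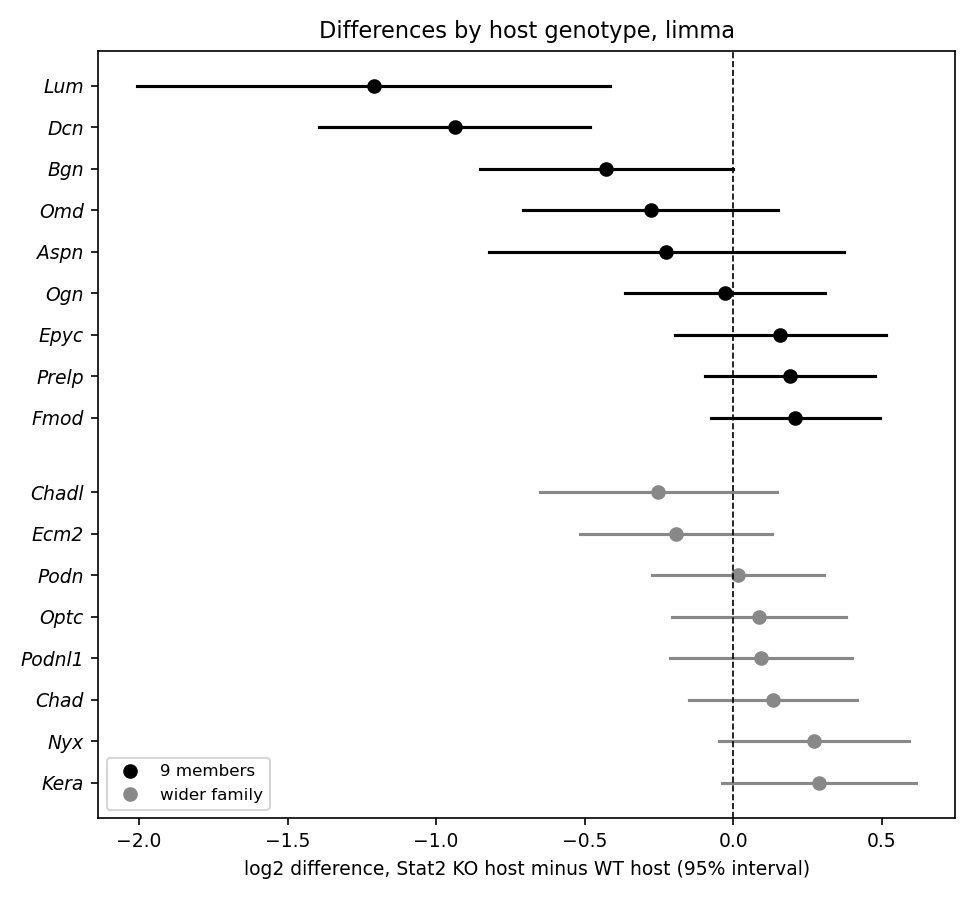
Log2 difference, Stat2 KO host minus WT host, of the 9 members (black) and of 8 further family members (grey), with the limma 95% interval of each gene. The intervals of Lum (-2.01 to -0.41) and Dcn (-1.39 to -0.48) lie furthest from 0, and those of the 8 further family members all cross it.

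**Figure D3:**
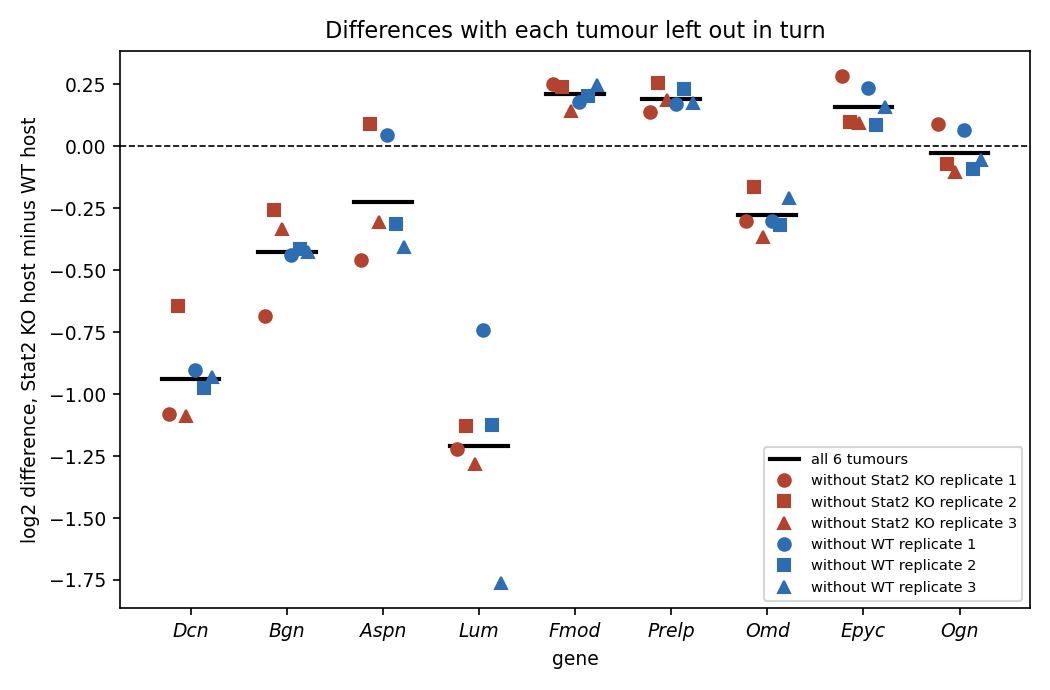
Log2 difference, Stat2 KO host minus WT host, of each member with all 6 tumours (black bar) and with 1 tumour left out (symbols, red for Stat2 KO and blue for WT tumours). Dcn stays between -1.09 and -0.65, Lum spans -1.76 to -0.74, and Aspn and Ogn change sign.

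The wider family held 8 further measured genes. Of these, 2 were lower and 6 higher in Stat2 KO hosts with a median of 0.09, which was 0.005 after cyclic loess, and 0 had a limma p under 0.05 even before adjustment. Besides Kera, Nyx of the retina differed by 0.27 (SE 0.147), Chadl of cartilage by -0.25 (SE 0.183) and Ecm2, which neighbours Aspn, by -0.19 (SE 0.148). Their limma adjusted p-values were 0.616, 0.69 and 0.708. Kera, Nyx and Ecm2 read near the level of dim probe sets, with WT means at or above 63.2%, 63.9% and 50.5% of the olfactory receptor genes. Leaving out Stat2 KO replicate 2 gave 0.17 for Nyx, -0.47 for Chadl and -0.11 for Ecm2, and leaving out Stat2 KO replicate 1 or 3 gave -0.14 or -0.15 for Chadl.

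Collagens that these proteoglycans bind or lie beside were lower in 8 of 11 genes, with a median of -0.08. Col3a1 of fibrillar type III collagen read 7.40, 6.99 and 7.36 in Stat2 KO hosts, against 7.47, 7.71 and 7.82 in WT hosts, a difference of -0.41 (SE 0.156, limma adjusted p = 0.517). The type I chains Col1a1 and Col1a2 differed by -0.48 (SE 0.229) and -0.31 (SE 0.150), with groups that overlapped, and Stat2 KO replicate 2 held the lowest value of all 3 genes, as it did for Dcn and Lum. Without that tumour Col1a1 differed by -0.21 and Col1a2 by -0.20. Col5a2, whose type V collagen starts fibrils, differed by 0.19, and by 0.12 without WT replicate 1. At an unadjusted limma p under 0.05 there was 1 of 11, Col3a1, lower, against 3.48% of all genes lower, and 0 passed after adjustment.

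Enzymes that build the sugar chains were lower in 14 of 23 genes with a median of -0.03. Papss2, which makes the sulfate donor, read 5.55, 6.21 and 5.63 in Stat2 KO hosts, against 6.38, 6.55 and 6.12 in WT hosts, with groups that overlapped at Stat2 KO replicate 2 and WT replicate 3 (difference -0.55, SE 0.186, limma adjusted p = 0.489). Chpf, a chondroitin polymerizing factor, differed by -0.37 (SE 0.147, limma adjusted p = 0.527) with groups that did not overlap. B4galt4, a galactosyltransferase that takes part in keratan sulfate synthesis, differed by -0.35 (SE 0.179), and by -0.21 without Stat2 KO replicate 2 or -0.19 without WT replicate 1. Of the 23, 2 had an unadjusted limma p under 0.05, both lower, against 3.48% of all genes lower, and 0 passed.

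Receptors and growth factors bound by these proteoglycans were lower in 8 of 17 genes and higher in 9, with a median of 0.02 that was -0.05 after median centring. Tgfb3, a TGF-beta ligand, read 6.47, 6.49 and 6.32 in Stat2 KO hosts, against 7.28, 7.51 and 6.88 in WT hosts. Every Stat2 KO tumour was lower, by a difference of -0.80 (SE 0.164, limma adjusted p = 0.316). Igf1r and Lrp1, both receptors that bind decorin, differed by -0.53 (SE 0.211) and -0.36 (SE 0.149). Without Stat2 KO replicate 3 the Igf1r difference was -0.26. Tlr4, a receptor of soluble biglycan, differed by -0.23 (SE 0.186) with groups that overlapped. It rested on Stat2 KO replicate 2, without which it was -0.04, and it was -0.11 without WT replicate 1 and -0.36 without WT replicate 3. With array weights Tgfb3, Igf1r and Papss2 passed (limma adjusted p = 0.0224, 0.0463 and 0.0423), and over all alternatives their adjusted p-values reached 0.854, 0.966 and 0.908. The weights were 2.475 for Stat2 KO replicate 3 and 2.253 for WT replicate 2, against 0.51 to 0.88 for the other tumours.

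Proteases that cut these proteoglycans split evenly, with 6 lower and 6 higher. Mmp12, the macrophage metalloelastase, differed by -0.47 (SE 0.181, limma adjusted p = 0.521) with groups that did not overlap, and by -0.25 without Stat2 KO replicate 2. Mmp13, a collagenase, differed by -0.39 (SE 0.197), and by -0.23 without Stat2 KO replicate 2 or -0.21 without WT replicate 3. The aggrecanase Adamts4 differed by 0.32 (SE 0.160) and the serine protease Htra1 by 0.25 (SE 0.137, limma adjusted p = 0.616). Under the 3 other scalings the Htra1 difference lay between 0.13 and 0.19. Htra1 and Mmp13 read near the level of dim probe sets. Their Stat2 KO means stood at or above 70.1% and 59.7% of the olfactory receptor genes, and their WT means at or above 60.9% and 73.1%. Groups did not overlap for 1 of the 12 in the lower direction (Mmp12) and for 2 in the higher, Htra1 and, outside the naming rule, Adamts1 (difference 0.22, SE 0.132). Over all genes these shares were 5.11% and 8.23%. Of other proteoglycans and link proteins, 9 of 24 were lower. Srgn, the granule proteoglycan of blood cells, differed by -0.44 (SE 0.143, limma adjusted p = 0.486), and the cell-surface proteoglycans Sdc2 and Gpc1 by -0.59 (SE 0.237) and -0.40 (SE 0.166). Without WT replicate 1 the Sdc2 difference was -0.35. The cartilage proteoglycan gene Acan differed by 0.30 (SE 0.128), with a WT mean at or above 59.5% of the olfactory receptor genes, near the level of dim probe sets.

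Markers of the cells that could make these proteins were read in the same way. Fibroblast markers were lower in 10 of 16 genes with a median of -0.03, and their mean level lay between 6.41 and 6.45 in Stat2 KO hosts and between 6.44 and 6.66 in WT hosts. That median lay between -0.10 and -0.08 under the 3 other scalings and between -0.06 and 0.03 with 1 tumour left out. Over the fibroblast markers brighter than the median gene alone it was -0.27. Pdpn, which encodes podoplanin, read 7.81, 7.21 and 7.61 in Stat2 KO hosts, against 8.76, 8.58 and 8.09 in WT hosts (difference -0.93, SE 0.197, limma adjusted p = 0.316), and the matrix genes Fbln1 and Postn differed by -0.50 (SE 0.178) and -0.39 (SE 0.284). The Postn difference rested on Stat2 KO replicate 2, without which it was -0.01. Leaving out WT replicate 1 gave -0.20, and leaving out Stat2 KO replicate 3 gave -0.67. Lrrc15, also named by rule, differed by 0.12 (SE 0.128) with groups that overlapped. Pdgfra, the receptor that defines many fibroblasts and is given here outside the naming rule, averaged 5.79 for Stat2 KO hosts and 5.68 for WT hosts, a difference of 0.11 with groups that overlapped. Those means stood at or above 70.4% and 66.0% of the olfactory receptor genes, near the level of dim probe sets. Mural and smooth muscle markers were lower in 5 of 10 genes, with a median of 0.01 that lay between -0.05 and -0.02 under the 3 other scalings. Of those named by rule, Acta2 differed by -0.14 (SE 0.226), Rgs5 by -0.22 (SE 0.206) and Abcc9 by 0.20 (SE 0.144), all with groups that overlapped. Mcam, an adhesion molecule of mural, endothelial and melanoma cells, differed by 0.53 (SE 0.198, limma adjusted p = 0.509) with groups that overlapped, and by 0.32 without Stat2 KO replicate 2. Cdh5, the endothelial cadherin, differed by -0.45 (SE 0.196, limma adjusted p = 0.552) with groups that did not overlap, and by -0.19 when that tumour was left out. Endothelial markers were lower in 5 of 9 genes and higher in 4, with a median of -0.02. The others named by rule were Emcn (difference -0.29, SE 0.22), Tek (0.13, SE 0.158) and Esam (0.13, SE 0.130). For Esam every Stat2 KO tumour was above the WT tumours, and for Emcn and Tek the groups overlapped. Tek means stood at or above 58.7% of the olfactory receptor genes for Stat2 KO hosts and 54.1% for WT hosts, near the level of dim probe sets. The mean level of endothelial markers lay between 6.39 and 6.58 in Stat2 KO hosts and between 6.54 and 6.58 in WT hosts.

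Macrophage markers also read lower in Stat2 KO hosts: 9 of 10 were lower with a median of -0.30, and their mean level lay between 6.24 and 6.44 in Stat2 KO hosts and between 6.55 and 6.80 in WT hosts, with no overlap. C1qb, a complement subunit, differed by -0.95 (SE 0.162, limma adjusted p = 0.195) and the lysosomal glycoprotein Cd68 by -0.61 (SE 0.163, limma adjusted p = 0.449). Markers of melanocytes and melanoma were lower in 7 of 8 genes with a median of -0.09, and had their lowest mean level, 11.2, in Stat2 KO replicate 2, against 11.6 in each of the other Stat2 KO tumours and 11.4 to 11.7 in WT hosts. Cartilage, bone and tendon markers were lower in 2 of 10 genes, keratinocyte markers in 1 of 7, skeletal muscle markers in 1 of 6 and adipocyte markers in 3 of 6. Their medians, in that order, were 0.19, 0.17, 0.16 and -0.07. Under the 3 other scalings they lay between 0.07 and 0.12, 0.10 and 0.11, 0.07 and 0.09, and -0.17 and -0.14. Sox9, a transcription factor of cartilage, differed by 0.41 (SE 0.174, limma adjusted p = 0.543) with groups that overlapped, and by 0.24 without Stat2 KO replicate 1. The others of that list named by rule were Sp7 (0.21, SE 0.167), Matn3 (-0.20, SE 0.150) and Ibsp (0.19, SE 0.1445), also with groups that overlapped. Sp7 and Ibsp read near the level of dim probe sets, with WT means at or above 56.9% and 50.8% of the olfactory receptor genes. Myh4, a myosin of fast muscle fibres, read 5.74, 5.58 and 5.68 in Stat2 KO hosts, against 5.21, 4.91 and 5.09 in WT hosts, with no overlap (difference 0.60, SE 0.142, limma adjusted p = 0.351). Its means stood at or above 65.3% of the olfactory receptor genes for Stat2 KO hosts and 43.3% for WT hosts, so both groups read near the level of dim probe sets. The other skeletal muscle genes named by rule were Acta1 (0.27, SE 0.189), Tnnt3 (0.20, SE 0.130) and Mylpf (-0.19, SE 0.154). Groups overlapped for Acta1 and Mylpf, and the WT mean of Mylpf stood at or above 48.5% of the olfactory receptor genes. None of these marker genes passed the limma adjusted threshold with all 6 arrays at equal weight, whereas C1qb passed when WT replicate 3 was left out (limma adjusted p = 0.0341). With array weights Pdpn, C1qb, C1qc, Cd68 and Ms4a7 passed, all lower (limma adjusted p = 0.0285, 0.0187, 0.0423, 0.037 and 0.0431), as did Myh4, higher (limma adjusted p = 0.037). In that setting, which rests mainly on Stat2 KO replicate 3 and WT replicate 2, 257 of all genes passed. C1qb, Cd68, C1qc and Ms4a7 are the macrophage markers that the naming rule picked, as those with the smallest limma p. Groups did not overlap for these 4 of the 10, against 5.11% of all genes in the lower direction. They overlapped for the rest, outside the naming rule, such as Csf1r (-0.29, SE 0.173) and Mrc1 (-0.04, SE 0.127). Cd163, with dim readings, was higher (0.17, SE 0.149). The part of these cell types in the differences of Dcn and Lum was not tested.

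**Figure D4:**
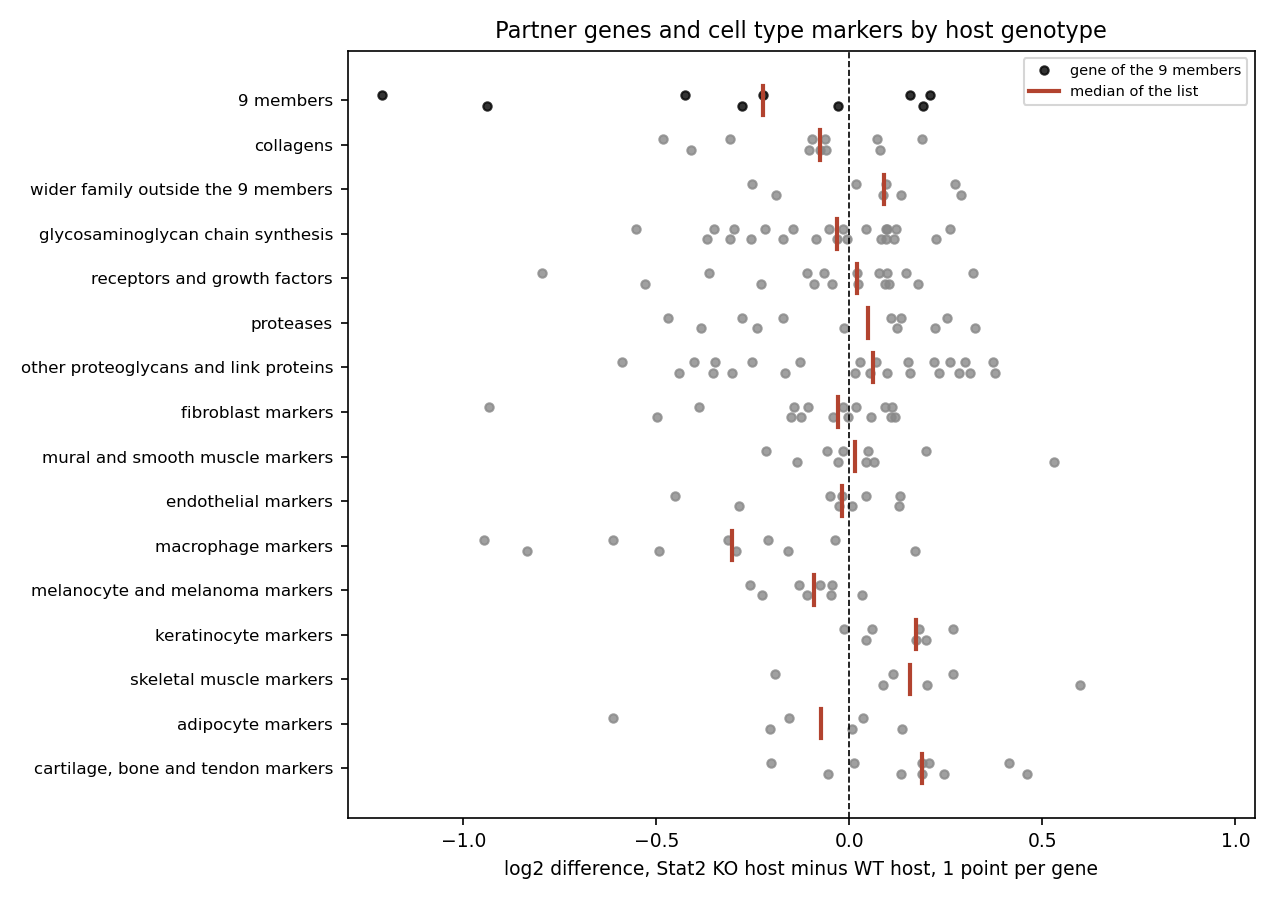
Log2 difference, Stat2 KO host minus WT host, of each measured gene of the 9 members (black), of 6 groups of related genes and of 9 groups of cell type markers (grey), with the median of each as a red bar. The lowest points are Lum at -1.21, C1qb at -0.95, Dcn at -0.94 and Pdpn at -0.93, and the medians run from -0.30 for macrophage markers to 0.19 for cartilage, bone and tendon markers.

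The genes most like Dcn and Lum were sought among 10467 named genes brighter than the median gene, by Pearson's r over the 6 arrays, which share the grouping by host. For Dcn they were Ppa1, a pyrophosphatase (r = 0.997), Rsad2, the antiviral enzyme viperin (r = 0.984), Rnf213, a ubiquitin ligase (r = 0.981), Cep290 of the centrosome and cilium (r = 0.980) and Depdc1a (r = 0.980). In each of these 5 genes, as in Dcn, Stat2 KO replicate 2 was the lowest tumour, and their differences ran from -0.73 (Rsad2) to -0.35 (Cep290). For Lum they were the adaptor gene Skap2 (r = 0.991), Utrn, which encodes utrophin (r = 0.990), Hmces (r = 0.989), Htatsf1 (r = 0.988) and Zscan29 (r = 0.987), with differences from -0.45 (Utrn) to -0.19 (Zscan29). Cep290 differed by -0.20 once Stat2 KO replicate 2 was left out, and Utrn and Zscan29 by -0.26 and -0.09 once WT replicate 1 was. Of these 10 genes, 0 had a limma adjusted p under 0.05. Such values of r are the highest of 10467 over 6 points and describe these tumours only.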

How the data were processed

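RNA of 6 tumours was hybridized to Affymetrix arrays, 1 per tumour. Per the submitters' processing notes, the authors used RMA in Affymetrix Expression Console 1.3.1, and the table they deposited holds 1 log2 value per probe set and array. RMA corrects background, equalizes array distributions and summarizes probes, which compresses differences of dim genes. The deposited distributions were still not fully equal. Lower quartiles ran from 5.19 (WT replicate 2) to 5.35 (Stat2 KO replicate 2), and upper quartiles from 7.13 (Stat2 KO replicate 2) to 7.22 (WT replicate 1). The array number limits the precision, and detection calls were not used here.

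Of 41345 probe sets, 23521 named 1 gene, 1814 several and 16010 none. Each gene was read from its brightest single-gene probe set, giving 22180 genes, with no filter on dim genes. Differences (Stat2 KO host minus WT host) came from limma 3.58.1 in R 4.3.3 (lmFit, eBayes with trend, two-sided, Benjamini-Hochberg over 22180 genes, threshold 0.05). Tested on simulated data of this size, it recovered 73 of 100 genes lowered by 1 log2 unit and 96 of 100 lowered by 2, with 8 false among 177 calls. The simulated noise was independent and normal, with residual SDs shuffled across genes, and 200 genes were changed. The real arrays differ in these respects, so the shares are not the power to find such differences in these tumours.

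Members and the 15 gene lists (182 genes, 177 measured) were chosen with earlier results of these data known. The naming rule picked all members, Stat2, up to 4 genes per list with the smallest p, and 5 genes most like Dcn and Lum each, leaving out predicted transcripts. Csgalnact2, of the sugar chain enzymes, and the picks among melanocyte, keratinocyte and adipocyte markers are not given in the text. Alternatives are given at the end. Promoter sequences are RefSeq's, and no other coordinates are given, since the files name no build.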

Additional observations from a re-analysis of the deposited data

How the results depend on the processing

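Among 132 recomputed differences of the members, 124 kept their direction and their side of the threshold, 1 passed it (Lum without WT replicate 3, -1.76) and 7 changed sign. Those were Aspn, between -0.46 and 0.091 with 1 tumour left out, Ogn, between -0.11 and 0.091 with 1 tumour left out and 0.10 with array weights, and the dimmer probe sets of Bgn (0.077) and Prelp (-0.18), which were added after the data were seen. With array weights the limma adjusted p of Dcn was 0.05003 and that of Lum 0.05385. The count of members lower, 6 of 9, was between 4 and 6 with 1 tumour left out. Only 3 members were brighter than the median gene, and 1 of them was lower. The count of genes passing in the whole table was 2. It was 0 after a further quantile normalization, 1 after cyclic loess, 1 without the intensity trend and 257 with array weights. With 1 tumour left out it ran from 0 to 17, reaching 17 without WT replicate 3, against 1 when Stat2 KO replicate 3 or WT replicate 2 was left out and 0 for the others. Whether replicate numbers pair the tumours was not settled. Same-numbered deviations correlated at 0.24, 0.08 and 0.03, and those with different numbers between -0.29 and 0.20. Deviations from the mean of 3 tumours depend on each other, so these values cannot decide it. With the replicate number as a block 3 genes passed, and Dcn and Lum had adjusted p-values of 0.14 and 0.231. Dim readings of Dcn, Lum, Ogn, Omd and Epyc limit what these arrays can show.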
